A study of Mus musculus with 4 samples.

Results

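The array probes mmu-miR-690, mmu-miR-705, mmu-miR-709, mmu-miR-711, mmu-miR-714, mmu-miR-720, mmu-miR-762 and mmu-miR-805 stand for entries of the mouse microRNA catalogue that have since been doubted as microRNAs, because their sequences are rich in G and C or resemble fragments of other RNAs. They were chosen by name, and make up 8 of the 700 microRNA probes of the array; the species prefix is left out below where the name is repeated. RNA came from tumours of 4T1 cells, a mouse mammary carcinoma line. Per the labels, 20 female Balb/s mice received 50000 cells each in the mammary gland, and at a tumour size of 1 cm3 the primary tumour was given sham radiation or, in 10 mice, 10 Gy. Mastectomy followed, after which metastases were left to grow until the end point. There were 4 groups with 1 array each: primary tumour after sham radiation, primary tumour after 10 Gy, metastases of sham-treated mice, and metastases of mice whose primary tumour had received 10 Gy. All groups share the injected cell line, and both metastasis groups share the surgery. Below, radiation in metastases names the comparison of the metastasis groups, where the 10 Gy had gone to the primary tumour. The organ that held the metastases and the number of mice behind an array are not in the labels.

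A microRNA is cut from a hairpin by Drosha and Dicer, is loaded into an Argonaute protein and finds messenger RNAs through its seed, bases 2 to 8. Early catalogues took in short RNAs without proof of these steps, and some entries later proved to be pieces of transfer or ribosomal RNA. On arrays, probes for G-rich targets can also bind other RNAs of similar composition. The label protocol added a poly(A) tail to total RNA, a step that does not separate microRNAs from fragments of longer RNAs. The signal is therefore called that of a probe below, and a level of the microRNA itself is not implied.

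Sequences are shown because richness in G and C is among the reasons for doubt given above. RefSeq (GRCm38.p6) gave the mature form of 4 of the 8, each identical to the target printed on the array, and a gene for 5. miR-714, miR-720 and miR-805 had neither there and are not shown. The seed is in capitals.
miR-705: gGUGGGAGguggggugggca
miR-709: gGAGGCAGaggcaggagga
miR-762: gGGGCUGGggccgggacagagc
miR-711: gGGACCCGgggagagauguaag
miR-690: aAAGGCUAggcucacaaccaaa
The sequence of miR-709 is the target given in the deposited files. miR-705 lies at chr6:85336341-85336360 on the minus strand, within the span of Rab11fip5, which encodes a partner of the small GTPase Rab11. miR-762 lies at chr7:127708534-127708555 on the plus strand, within Bcl7c, which encodes a subunit of a chromatin remodelling complex. miR-711 lies at chr9:108969970-108969991 on the plus strand, within Col7a1, which encodes type VII collagen. miR-690 lies at chr16:28599940-28599961 on the minus strand, within Fgf12, which encodes an intracellular relative of fibroblast growth factors. The gene of miR-709 lies within the span of Rfx1, which encodes a transcription factor. Exons and introns were not annotated in the table used.

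Not all 8 are rich in G and C. The target of miR-762 is 81.8% G or C, that of miR-714 81.0%, miR-705 75% and miR-709 68.4%, followed by miR-720 at 66.7% and miR-711 at 63.6%. miR-690 (45.5%) and miR-805 (45%) lie below the median of all 700 targets, 47.7%. G alone makes up 70% of the target of miR-705, more than in any other target on the array, 59.1% of miR-762 and 57.9% of miR-709, against a median of 26.1% over all targets. miR-705, miR-711, miR-720 and miR-762 hold 4 G in a row, as 6.29% of all targets do. The 8 seeds all differ, and no other probe on the array shares any of them. The longest run of bases that 2 of the 8 share is 9, between miR-720 and miR-762. The run of 10 that miR-709 shares with miR-1935 is its longest with any probe.

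The arrays differed as a whole. Empty spots had a median intensity of 171.5 and 177.2 on the sham arrays of primary tumour and metastases, and of 416.9 and 252.4 on the matching 10 Gy arrays. A probe was called detected if 3 or more of its 5 spots were brighter than 95% of the empty spots, which held for 186 to 459 of the 700 probes. The manufacturer's control probes named PUC2MM and PUC2PM stood in a ratio, above the empty spots, of 64.5%, 63.7% and 60.6% on the primary sham, metastases sham and metastases 10 Gy arrays, and of 23.7% on the primary 10 Gy array. Of 5 microRNAs typical of epithelial cells, miR-141 and the miR-200 family, 1 was detected on each primary tumour array and all 5 on each metastases array. These markers of the cell type of 4T1 were thus largely absent from the primary tumour arrays.

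All 8 probes were detected on all 4 arrays. They are 1.14% of the probes, and together held 13.4% of the summed microRNA probe signal in the sham primary tumour and 14.0% in the irradiated one, counted above the empty spots. In metastases they held 11.6% after sham and 11.5% after 10 Gy. These shares need no scaling between arrays. Most of each share came from the G-rich miR-705, miR-709 and miR-762, which held 11.6%, 12.2%, 8.67% and 8.85% in this order. The share of miR-709 alone was 4.51% and 7.23% in the sham and 10 Gy primary tumour, and 3.33% and 3.91% in the metastases. Brightness also depends on how well a probe binds, so the shares are of signal and not of molecules.

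**Figure D1:**
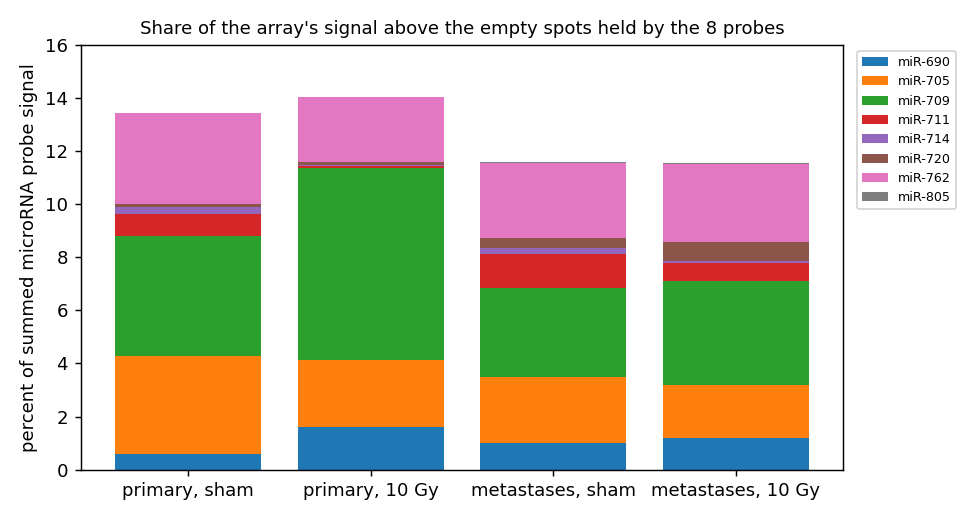
Stacked bars give the percent of the summed signal of 700 microRNA probes, above the median of the empty spots, that each of the 8 probes held on each of the 4 arrays. The totals run from 11.5% to 14.0%, and miR-705, miR-709 and miR-762 make up most of each bar.

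The G-rich miR-705, miR-709 and miR-762 were bright on all arrays. This did not hold for miR-711 and miR-714, whose targets are 50% and 47.6% G. On the primary 10 Gy array they stood at 1.57 and 1.83 times the empty spots. The 5 spots of miR-709, an entry reported in mouse cells to act in the nucleus, had a mean intensity of 50269.6 ± 2051 (SD of 5 spots, as below) in the sham primary tumour, 40984 ± 1256 in the 10 Gy primary tumour, 37744 ± 520.0 in the sham metastases and 26628.5 ± 2220.3 in the 10 Gy metastases. It ranked 1, 1, 2 and 3 by brightness on these arrays. miR-705 gave 41422 ± 1319, 14609 ± 864, 28435 ± 704 and 13612 ± 775 in the same order. Both 10 Gy arrays were thus dimmer than both sham arrays for miR-705, whose spots overlapped between the 10 Gy arrays. miR-762 gave 38131 ± 1031, 14046 ± 1757, 32170.4 ± 437 and 20267 ± 2302, again with the sham arrays brighter.

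**Figure D2:**
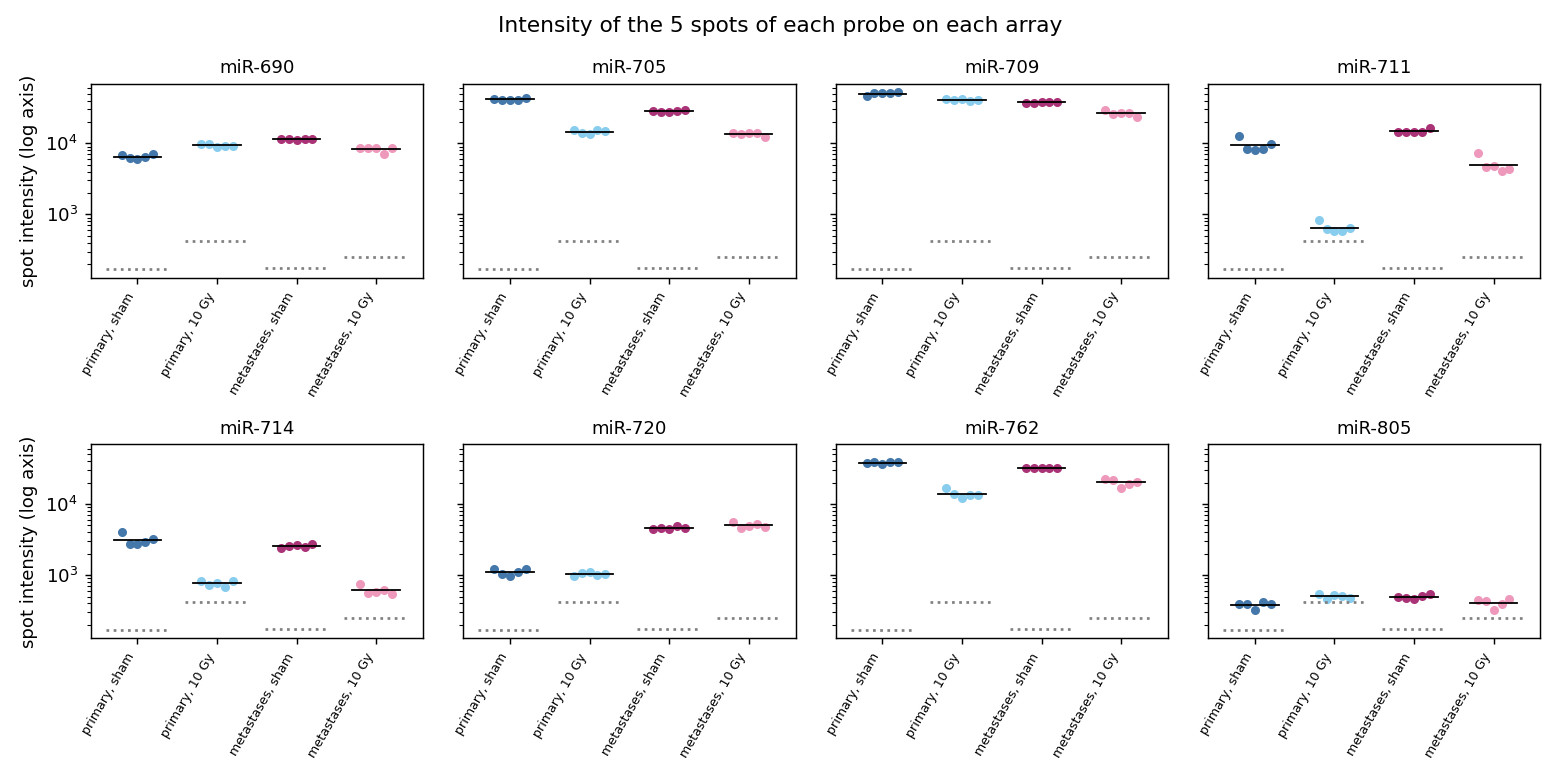
Each panel shows 1 probe, with the intensity of its 5 spots (points, log axis), their mean (black line) and the median of the empty spots (dotted line) on the 4 arrays. miR-711 drops to 653 on the primary 10 Gy array, near the empty spots at 416.9, and miR-720 is higher on both metastases arrays than on both primary tumour arrays.

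The first question was what 10 Gy to the primary tumour did to these signals in it. Values below are log2 levels after background correction and quantile normalization, which gives the same value to probes of the same rank. The error of a difference is the SD over 5 pairs of spots at matching places on the 2 chips. It covers scatter within the chips and neither chips nor animals, so no difference has a test. Of the 8 probes, 3 were at least 2-fold apart, beside 30.4% of the 339 probes detected on either array. Among the 3, 2 were lower after 10 Gy, beside 15.3% of those probes, and 1 was higher, beside 15.0%. The split depends on the scaling. Quantile normalization gave 51 probes higher and 52 lower, no normalization 7 and 95, scaling each array to its 5S ribosomal RNA probes 8 and 79, and scaling to its 75th percentile 190 and 25; of the 8 probes, 0 were then higher and 4 lower without normalization and with 5S scaling, and 2 higher and 2 lower with the 75th percentile.

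The mmu-miR-711 probe was the farthest apart. Its mean intensity was 9484 ± 2027 in the sham primary tumour and 653 ± 101 in the irradiated one, where it stood at 1.57 times the empty spots. The log2 level was 12.65 against 9.14, a difference of -3.51 ± 0.27 or 11.4-fold, and 0.295% of the detected probes lay lower. In the 9 other processing settings it ran from -4.77 to -3.15. The ratio of the control probes PUC2MM and PUC2PM was lowest on the same array, and its part in this difference was not tested. Among 5 leukocyte microRNAs, miR-223 was lower on this array too, at a log2 level of 12.31 in the sham and 9.39 in the irradiated primary tumour. The sum of the 5 went from 7772 to 618 with it, with 3 and 2 of them detected, while miR-155 stood at 9.77 and 9.65, and miR-150, miR-142-3p and miR-142-5p at 6.58 to 7.40 on both arrays. The part of leukocytes was not tested.

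miR-714, with a target 81.0% G or C, was lower as well. It gave 3124 ± 581 in the sham and 763 ± 56.2 in the irradiated primary tumour, at 1.83 times the empty spots in the latter. The log2 difference was -1.45 ± 0.22, or 2.73-fold, and -2.72 without normalization. miR-690, which is not rich in G and C, was the probe past 2-fold in the other direction. It gave 6515 ± 428 in the sham and 9447 ± 397 in the irradiated tumour, a difference of 1.37 ± 0.09 after normalization and 0.51 without it. Above the empty spots, it was the only one of the 8 with a higher intensity in the irradiated primary tumour. miR-805 gave 385 ± 37.8 and 502 ± 30.2, but only 213 and 84.8 above the empty spots of these arrays.

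The other 5 differed by less than 2-fold: miR-720 by 0.66 ± 0.27, miR-709 by 0 ± 0.08, miR-805 by -0.05 ± 0.42, miR-705 by -0.41 ± 0.22 and miR-762 by -0.48 ± 0.30. For miR-709 the value of 0 follows from its rank of 1 on both arrays, and it was -0.30 without normalization, 0.35 with cyclic loess and 1.12, past 2-fold, with scaling to the 75th percentile. miR-705 and miR-762 reached -1.53 and -1.48 without normalization, which is past 2-fold. miR-720 turned to -0.47 there.

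**Figure D3:**
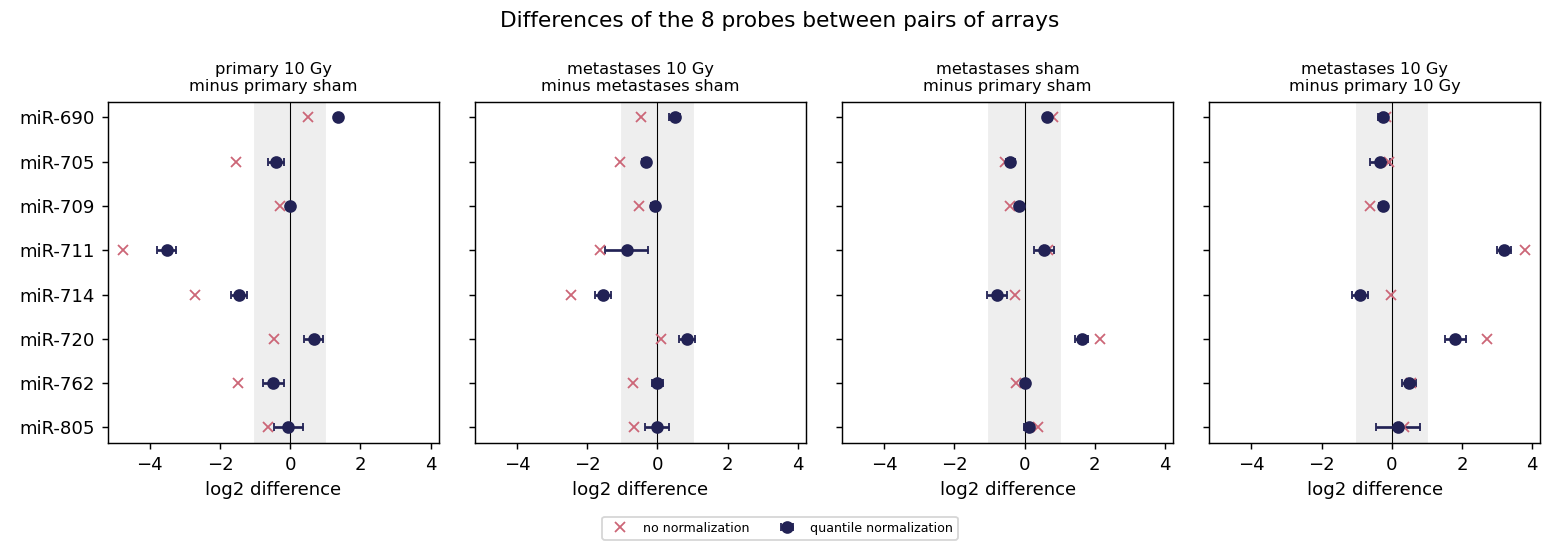
Points give the log2 difference of each of the 8 probes in the 4 comparisons after quantile normalization, with the SD over 5 spot pairs as bars; crosses give the difference without normalization, and the grey band spans 2-fold. miR-711 lies at -3.51 in the first panel and at 3.19 in the last, miR-714 lies beyond 2-fold lower in both radiation panels, and miR-720 beyond 2-fold higher in both panels of metastases against primary tumour.

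The second question was how metastases of mice with an irradiated primary tumour differed from those of sham-treated mice. Of the 8, the mmu-miR-714 probe alone passed 2-fold, beside 4.78% of 481 probes. It was lower, as were 2.49% of the probes, while 2.29% were at least 2-fold higher. Those shares stand for 12 and 11 probes, against 71 lower and 7 higher without normalization, where 3 of the 8 were lower. Its mean intensity was 2582 ± 139 in the sham and 609 ± 77.2 in the 10 Gy metastases, and the log2 difference was -1.56 ± 0.23 (2.95-fold), or -2.47 without normalization, with 0.832% of the probes lower. Its response in metastases minus that in the primary tumour was -0.11 ± 0.43. In all 9 other settings miR-714 stayed past 2-fold at both sites, though the stricter detection cannot change its value. Both values in the 10 Gy arm lie near the empty spots, at 1.83 and 2.41 times their median. Muscle microRNAs, all 4 of which were detected on all arrays, did not move alike between the arms. miR-1 stood at a log2 level of 7.07 and 11.89 in the sham and 10 Gy primary tumour. In the metastases it stood at 7.10 and 13.54. miR-133a stood at 7.13 and 10.35, and at 7.24 and 10.29, in the same order. miR-133b was higher on the 10 Gy array of each site as well. miR-206 went from 12.68 to 11.70 in the primary tumour and from 7.51 to 11.24 in metastases. The summed signal of the 4 was 9585 and 4099 in the primary tumours and 366 and 12986 in the metastases, and the part of muscle in the difference of miR-714 was not tested.

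For miR-711 the metastases gave 14729 ± 853 after sham and 5013 ± 1254 after 10 Gy. The log2 difference was -0.87 ± 0.62, against -3.51 in the primary tumour, so the responses differed by 2.64 ± 0.38. This difference was not tested. The value in metastases passed 2-fold in 3 of the 9 other settings, which ranged from -1.62 to -0.83. miR-720 was higher by 0.85 ± 0.24 and miR-690 by 0.49 ± 0.15. Without normalization the former was 0.11 and the latter -0.46. miR-705 differed by -0.33 ± 0.11 (-1.08 without normalization), miR-709 by -0.07 ± 0.12, and miR-762 and miR-805 by 0 ± 0.15 and 0 ± 0.34, having kept their ranks of 6 and 155.

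The third question was how metastases differed from the primary tumour in each arm. The mmu-miR-720 probe, for an entry whose human sequence was later traced to a threonine transfer RNA, gave a higher signal in metastases in both arms. It stood at 1108 ± 116 and 4619.8 ± 169.9 in the sham primary tumour and sham metastases, and 1043 ± 54.4 and 5038 ± 408 in the 10 Gy arm. The 10 Gy primary tumour value was 2.50 times the empty spots. No spot of either primary tumour array reached the spots of the metastases. Spots also did not overlap for 64.5% of 473 probes after sham and 75% of 344 after 10 Gy. Among the 8 this held for 7 and 5. These counts use intensities before background was subtracted, so a difference in the empty spots can add to them. After 10 Gy, the spots of miR-805 were lower in metastases than in the primary tumour (mean 411 against 502). Above the empty spots they were higher (159 against 84.8). The log2 difference of miR-720 was 1.63 ± 0.19 (3.09-fold) after sham and 1.81 ± 0.30 (3.50-fold) after 10 Gy. It was past 2-fold in all 9 other settings, though the stricter detection cannot change its value. It was the only one of the 8 past 2-fold after sham, beside 22.6% of 473 probes: 12.1% were higher by that much and 10.6% lower, which is 57 and 50 probes, against 88 and 52 without normalization. After 10 Gy it was joined by miR-711, so that 2 of 8 passed 2-fold beside 23.8% of 344 probes, with 12.8% higher and 11.0% lower. That is 44 and 38 probes, against 52 and 15 without normalization and 30 and 144 with the 75th percentile, where 3 of the 8 were lower.

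Erythroid, epithelial and leukocyte markers were in sum also higher in metastases in both arms. The summed signal of 3 erythroid microRNAs was 2702 and 846 in the sham and 10 Gy primary tumour and 20734 and 11988 in the metastases, with 2, 2, 3 and 2 of them detected. Of these, miR-144 stood at a log2 level of 6.48 to 6.71 on all arrays. That of the 5 epithelial microRNAs was 65.7 and 65.5 in the primary tumours and 6961 and 3659 in the metastases. For the 5 leukocyte microRNAs it was 7772 and 618, and 13218 and 5635. Not all 5 were higher in metastases. The log2 level of miR-223 was 12.31 in primary tumour and 12.22 in metastases after sham, and 9.39 and 11.93 after 10 Gy. That of miR-155 was 9.77 and 10.25 after sham, and 9.65 and 9.44 after 10 Gy. miR-150, miR-142-3p and miR-142-5p were higher in metastases in both arms. The muscle sum was lower in metastases after sham and higher after 10 Gy. Between the metastases arrays the erythroid, epithelial and leukocyte sums, which are not scaled between arrays, were lower after 10 Gy. The total signal of all microRNA probes was lower as well, at 1128520 after sham and 675101 after 10 Gy. On the same scale miR-720 gave 4443 and 4786 above the empty spots. Its log2 difference was 0.85 after quantile normalization and 0.11 without it. The part of these cell types in the difference of miR-720 was not tested. In bulk tissue, a change in the share of a cell type cannot be told apart from a change in RNA per cell. Of the 5 control probes for 5S ribosomal RNA, mmu-5S-b1 was higher in metastases too, by 1.11 and 1.32 on the log2 scale without normalization, while the other 4 ranged from -0.62 to 0.44.

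miR-711 was higher in metastases by 0.55 ± 0.30 after sham and by 3.19 ± 0.20 (9.12-fold) after 10 Gy. The latter difference rests on the primary 10 Gy array, the only one on which miR-711 lay near the empty spots. miR-714 was lower in metastases by a difference of -0.79 ± 0.29 after sham and -0.90 ± 0.23 after 10 Gy, with spots that overlapped in each arm, and at -0.28 and -0.03 without normalization. miR-690 differed by 0.63 ± 0.07 after sham and by -0.25 ± 0.14 after 10 Gy. miR-705 stood at -0.41 ± 0.12 and -0.33 ± 0.29, miR-709 at -0.17 ± 0.05 and -0.24 ± 0.11, miR-762 at 0 ± 0.06 and 0.48 ± 0.20, and miR-805 at 0.13 ± 0.13 and 0.18 ± 0.62.

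The 8 did not move as a block. Without normalization, the highest and lowest differences of the 8 were 5.28 apart for radiation in the primary tumour and 2.58 for radiation in metastases. For site they were 2.69 apart after sham and 4.43 after 10 Gy. Multiplying an array by a constant cannot alter these gaps, but a change in its background can. The 5.28 and 4.43 rest on miR-711, which lay near the empty spots on the primary 10 Gy array. The 2.58 rests on miR-714, which lay near them on the metastases 10 Gy array. miR-720 and miR-762, which share their run of 9 bases, differed by 1.63 and 0 between metastases and primary tumour after sham. Without normalization, the difference of miR-720 exceeded that of miR-714 by 2.25 to 2.75 in all 4 comparisons. Scaling by a constant cannot change these values, so they are no check on the scaling. The median of the 8 was -0.23, -0.03, 0.06 and -0.03 in the order of the 4 comparisons (radiation in primary tumour, radiation in metastases, site after sham, site after 10 Gy), beside -0.06, -0.02, 0.06 and 0.004 over all detected probes.

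**Figure D4:**
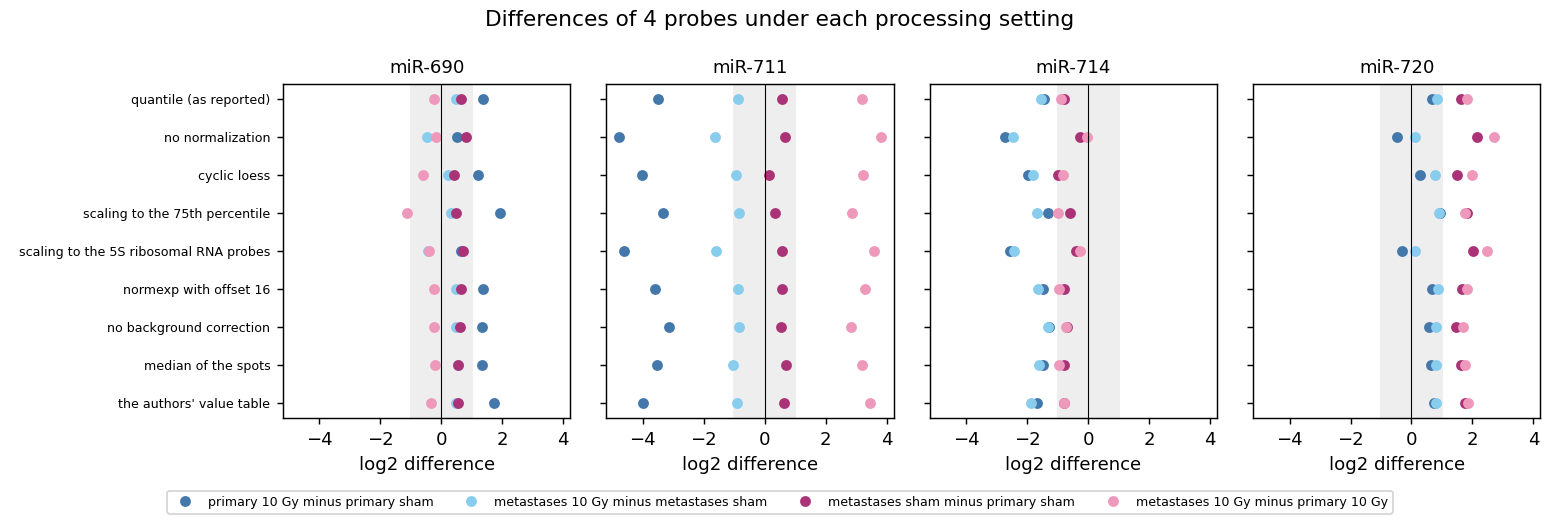
Log2 differences of miR-690, miR-711, miR-714 and miR-720 (panels) in the 4 comparisons (colours) under quantile normalization and 8 other settings (rows); the grey band spans 2-fold. The values of miR-714 for radiation stay at or below -1.28 at both sites, those of miR-720 for site at or above 1.45, and miR-690 for radiation in metastases takes either sign.

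Across the arrays, the probes differed in how much they varied. The normalized level of miR-711 spanned 4.06 on the log2 scale, more than 95% of the 180 probes detected on all arrays. miR-720 spanned 2.47 and miR-714 2.35. miR-805, miR-709 and miR-762 spanned 0.18, 0.24 and 0.48, where the median of the 180 was 1.48. These small spans follow in part from ranks that hardly changed, and without normalization the same probes spanned 1.02, 0.93 and 1.48. Likeness over the 4 arrays was measured by the root mean square distance of centred log2 levels among 172 other probes, and with 4 arrays it is only a description. The nearest to miR-711 were the leukocyte miR-223 at 0.44 and miR-15a at 0.81. For miR-720 they were the erythroid miR-486 (0.21) and miR-181a (0.34), for miR-714 miR-680 (0.28) and miR-290-5p (0.28), and for miR-690 miR-185 (0.05) and miR-501-3p (0.06). Among the bright G-rich probes, miR-705 was nearest to miR-1945 (0.11) and miR-10b (0.16), miR-709 to miR-1945 (0.11) and miR-15b (0.12), and miR-762 to miR-2132 (0.12) and miR-139-5p (0.12). miR-805 was nearest to let-7b (0.07) and miR-2132 (0.08).

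Other probes share the number range or the composition of the 8. Entries numbered miR-680 to miR-721, the range that holds 6 of the 8, have 37 other probes, of which 25 were detected on at least 1 array and 7 on all 4. Medians were taken over those detected on either array of a comparison. The median difference was -0.23 for radiation in the primary tumour and -0.06 for radiation in metastases. It was -0.03 for site after sham and -0.61 for site after 10 Gy. The 59 other probes with at least 65% G or C, taken in the same way, had medians of -0.10, -0.01, -0.08 and -0.50 in this order. For radiation in the primary tumour, 3 of the 42 that were detected were at least 2-fold higher and 9 lower, beside 51 and 52 of all 339. In metastases, 0 and 3 of 51 were, beside 11 and 12 of 481. For site, 2 and 10 of 52 were after sham, beside 57 and 50 of 473. After 10 Gy, 2 and 6 of 34 were, beside 44 and 38 of 344. miR-680, the nearest in pattern to miR-714, differed by -1.20 for radiation in the primary tumour and by -0.90 in metastases. miR-689 and miR-2137, bright probes of 85.7% G or C each, differed by 0.16 and -0.47 for radiation in the primary tumour and by -1.04 and 0.48 for radiation in metastases. Outside the 8, 40 probes hold 4 G in a row. For radiation in the primary tumour, 1 of 33 detected was at least 2-fold higher and 10 lower, beside 51 and 52 of 339. In metastases it was 0 and 4 of 38, beside 11 and 12 of 481. For site it was 0 and 10 of 39 after sham, beside 57 and 50 of 473. After 10 Gy it was 1 and 6 of 23, beside 44 and 38 of 344. Over the probes outside the 8, the Pearson correlation of G and C content with the difference was 0.04, -0.04, -0.17 and -0.30. That of G alone was -0.16, 0.03, -0.23 and -0.12. Both cover 331, 473, 465 and 336 probes in the same order. These probes share their arrays and are not independent.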

How the data were processed

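Each array was a one-colour chip hybridised by a service provider with total RNA (2 µg) that had been tailed with poly(A), joined to a tag and stained with Cy3, per the labels' protocols. The deposited scanner tables give a mean intensity per spot, per the file headers; its scale is linear, and background had not been subtracted, since empty spots lie far above 0. Of 3968 spots, 3500 belong to 700 microRNA probes with 5 spots each, 180 are empty and 20 belong to 5 probes for 5S ribosomal RNA. The authors' deposited value table holds background-subtracted intensity (correlation with the scanner means 0.99996 on the primary sham array, where it was lowest) and was used only as an alternative. The scanner software is not given in the sources used here, and the number of arrays limits the precision.

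Commas between digit groups were removed. Background was corrected with normexp at an offset of 50 (limma 3.58.1, R 4.3.3), which shrinks differences of dim probes. The log2 values of 5 spots were averaged and the arrays quantile normalized over the microRNA probes. For the SD, spots were carried through the same quantile map by interpolation. The steps were tested on simulated data, in which changes up and down were equally likely and recovery was scored on bright probes only. That test therefore does not cover dim probes or an unbalanced shift between arrays. Probes counted at 2-fold were those detected on either array of a comparison. The members and lists were chosen with earlier results of these data known; all 8 are named, with the 2 most alike probes of each and at most 4 probes of each list by mean level. The probes sharing runs of bases or 4 G in a row were added after values had been seen.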

Additional observations from a re-analysis of the deposited data

Results flagged for a closer look

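miR-690 differed between metastases and primary tumour in opposite directions in the 2 arms: by 0.63 ± 0.07 after sham and by -0.25 ± 0.14 after 10 Gy, each beyond the SD of its spot pairs. The second value minus the first was -0.88. It rests on 1 array per group, and the difference between the arms was not tested.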

How the results depend on the processing

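In none of the 9 alternatives did a probe past 2-fold change sign, though detection at the 99th percentile cannot change a difference. The median of the 8 for radiation in the primary tumour (-0.23) was -1.05 without normalization, -0.50 with cyclic loess, -0.91 with scaling to the 5S ribosomal RNA probes and 0.36 with scaling to the 75th percentile. For radiation in metastases (-0.03) it was -0.68 without normalization, -0.66 with 5S scaling and 0.11 with the 75th percentile. For site after sham (0.06) it was -0.30 with cyclic loess, -0.26 with the 75th percentile, -0.038 with 5S scaling and 0.15 in the authors' value table, and for site after 10 Gy (-0.03) it was -0.80 with the 75th percentile. The number past 2-fold for radiation in metastases (1) was 3 without normalization, 3 with 5S scaling and 2 with the median of the spots; for site after 10 Gy (2) it was 5 with the 75th percentile, as miR-690 (-1.12), miR-705 (-1.05) and miR-709 (-1.58) joined. miR-690 for radiation in the primary tumour was under 2-fold without normalization (0.51) and with 5S scaling (0.66). Scaling to the 75th percentile moved the median of all probes to 1.13, 0.59, -0.24 and -0.88 in the 4 comparisons. All 8 probes were still detected at the 99th percentile of the empty spots. Brightness above background limits miR-805 on all arrays, miR-711 and miR-720 on the primary 10 Gy array and miR-714 on both 10 Gy arrays. No paired analysis was possible because each group holds 1 array.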
